A study of Homo sapiens with 12 samples.

Results

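Interferon-stimulated effector genes are described here in 2 breast cancer cell lines, with and without depletion of PACT, the double-stranded RNA binding protein encoded by PRKRA. The set is a list of 41 gene symbols that cells raise in response to interferon, given by name, with no measured value in the rule. Each symbol matched 1 gene of the 57500 in the count table, and all 41 had enough counts to be tested. HCC1806 and MDA-MB-468 are established lines from triple-negative breast cancers, which lack the estrogen and progesterone receptors and amplified HER2. In HCC1806 the control cells carried the guide sgC1 and the depleted cells the guide sgPACT-2. In MDA-MB-468 the control guide was sgNTA and the depleting guide was again sgPACT-2. Depletion was by CRISPR-Cas9, so controls and depleted cells alike carried a guide, and the labels name no treatment with interferon. Each of the 4 groups had 3 libraries of rRNA-depleted total RNA. Whether the depleted cells were a pool or a clone is not given in the sources used here. The labels do not say that the libraries of a group came from separate cultures, so p-values measure only the spread between these libraries, which may be technical.

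Type I interferons bind the receptor made of IFNAR1 and IFNAR2, and the kinases JAK1 and TYK2 then activate STAT2. With IRF9 it forms part of ISGF3, a complex that binds the interferon-stimulated response element (ISRE) before its target genes. The response to interferon gamma runs mainly through a different element, the gamma-activated sequence (GAS). The products act at several steps of infection: the transcription factors IRF1, IRF7, IRF9 and STAT2 pass the signal on, ISG15 is a ubiquitin-like protein attached to other proteins, and IFIT, MX, RSAD2 and IFITM proteins bind viral RNA or block replication or entry. Double-stranded RNA also activates PKR, a kinase encoded by EIF2AK2 that is itself raised by interferon. The series as titled is about PACT as a suppressor of PKR, and the depletion comparisons ask how the transcriptome of each line changes when PACT is lowered.

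The sequences before the start sites show which of these genes carry the letters of an ISRE. Members with such a match had both higher and lower baseline levels in MDA-MB-468 than in HCC1806. Whether a match goes with the level was not tested. The ISRE was searched as GAAA, any 2 bases and GAAA, and the GAS as TTCNNNGAA, on both strands, in the 250 bases before each RefSeq start site (GRCh38.p14). Matches of the same or of the other motif were allowed to overlap. Of the 41 members, 35 were found in the promoter table, with 48 start sites. IFIT2, MX2, IRF7, USP18, IFITM2 and TRIM22 were not found there and so were not searched. In 42 of the 48 the bases after the start were found in a transcript of the gene. An ISRE match lay in 27 of these 48 windows (56.2%), against 3.02% of 34943 windows of all genes. A GAS match lay in 11 of them (22.9%), against 6.56% of all windows. Start sites of 1 gene can lie close together, so 1 match can count in several windows. By gene, 23 of the 35 members held an ISRE match, against 3.71% of 27167 genes, and 10 a GAS match, against 8.08%. The kappaB letters (GGGA, any 2 bases and TTCC) were in 0 of the 48 windows and in 1.4% of all. At so low a share, 0 of 48 does not set these windows apart from all windows. A match is a description of letters and not a measured binding site. Stretches of the start sites of 8 members are printed 5′ to 3′ on the gene's strand, with the ISRE matches in capitals except for IRF1, where the capitals mark the GAS match. The first 3 belong to RSAD2 (at the second of its start sites), LGALS3BP and IRF1, whose depletion values are described below. Of these, IRF1 did not pass the depletion test in the model of all 12 libraries. IRF7, which passed in HCC1806, had no start site to print. ISG15 and IFIT1 each hold 2 ISRE matches, which overlap in ISG15. IFI27, IFI6 and DDX60L are members with lower baseline levels in MDA-MB-468. In IFI27 a GAS match overlaps both ISRE matches. The 30 bases of LGALS3BP lie inside an exon of the GENCODE 29 model.
RSAD2 (chr2:6877599-6877662, plus strand): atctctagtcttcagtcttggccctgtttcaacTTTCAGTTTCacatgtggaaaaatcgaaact
LGALS3BP (chr17:78979962-78979991, minus strand): gtggtttctgGAAATCGAAAgtagactctt
IRF1 (chr5:132490854-132490923, minus strand): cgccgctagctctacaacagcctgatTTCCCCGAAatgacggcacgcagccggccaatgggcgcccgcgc
ISG15 (chr1:1013357-1013421, plus strand): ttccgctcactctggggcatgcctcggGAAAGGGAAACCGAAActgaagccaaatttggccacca
IFIT1 (chr10:89392473-89392532, plus strand): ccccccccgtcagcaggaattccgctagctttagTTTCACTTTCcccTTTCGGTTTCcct
IFI27 (chr14:94110606-94110665, plus strand): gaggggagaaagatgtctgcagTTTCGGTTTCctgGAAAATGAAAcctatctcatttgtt
IFI6 (chr1:27672273-27672362, minus strand): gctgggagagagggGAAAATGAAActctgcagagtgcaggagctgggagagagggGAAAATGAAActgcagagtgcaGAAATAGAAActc
DDX60L (chr4:168480533-168480592, minus strand): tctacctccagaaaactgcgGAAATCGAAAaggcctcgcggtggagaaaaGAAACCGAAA

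**Figure D1:**
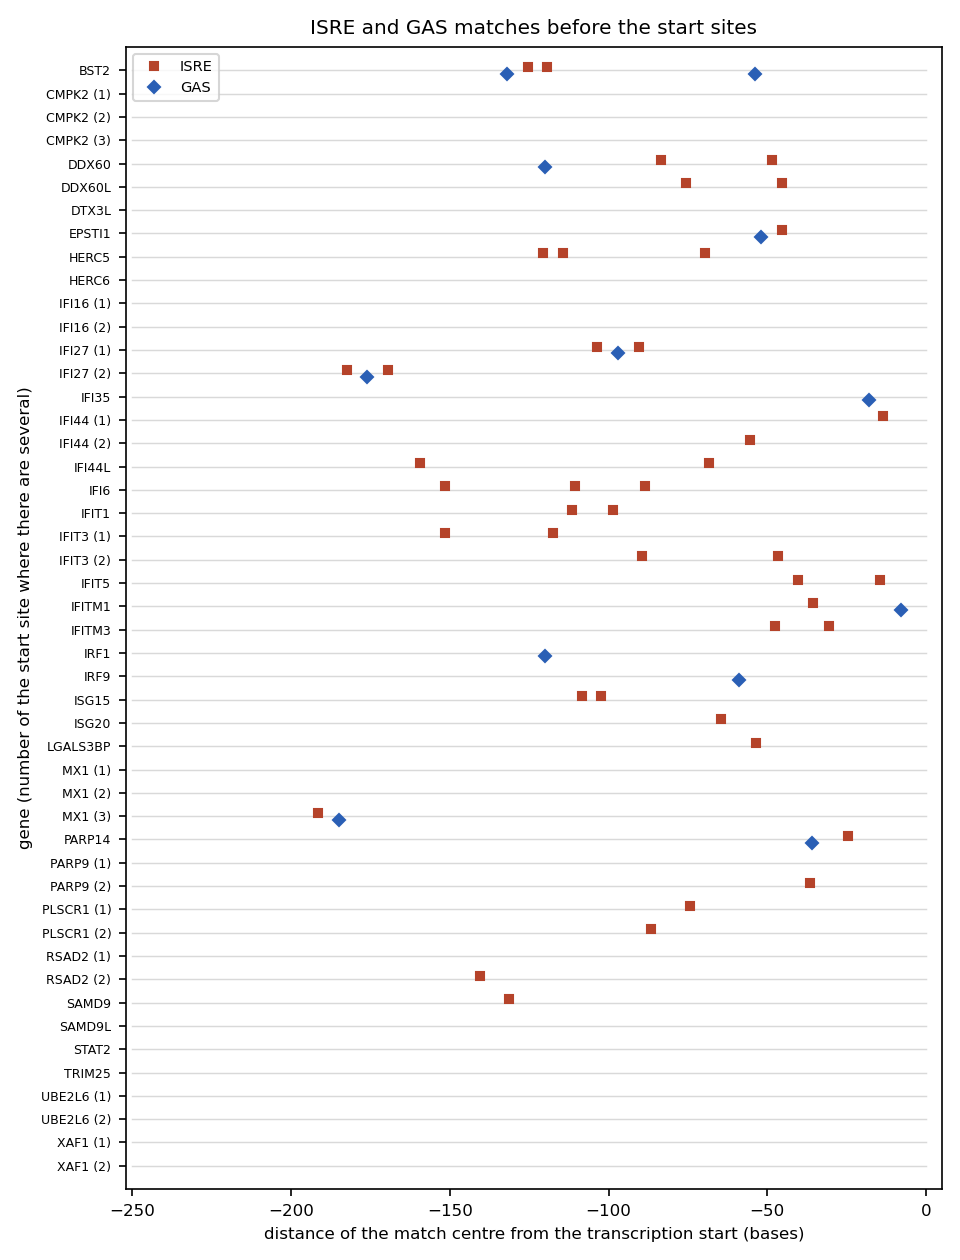
ISRE and GAS matches before the start sites of the members in the RefSeq promoter table; the x axis is the distance of the centre of a match from the transcription start in bases, and each row is 1 of 48 start sites. Squares are ISRE matches and diamonds GAS matches; 27 rows hold a square and 11 a diamond.

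PRKRA transcript was lower in the depleted HCC1806 libraries and differed little in MDA-MB-468. Levels are given in counts-per-million (CPM), scaled by TMM. In HCC1806 the mean was 77.8 ± 5.30 CPM in controls and 36.9 ± 0.774 CPM after depletion (SD, n = 3). PRKRA fell by 1.07 there on the log2 scale (SE 0.10, adjusted p = 1.7e-05, edgeR quasi-likelihood test, Benjamini-Hochberg over all 27029 genes tested). In MDA-MB-468 the means were 44.7 ± 3.12 and 38.8 ± 3.09 CPM (SD, n = 3), with a log2 fold change of -0.20 (edgeR, adjusted p = 0.958). A guide can stop a protein without lowering its transcript, so the MDA-MB-468 value leaves the depletion in that line unchecked. EIF2AK2, encoding PKR, had log2 fold changes of -0.39 in HCC1806 (edgeR, adjusted p = 0.0664) and 0.00 in MDA-MB-468.

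The sum of counts per library was 18640633 to 24704877 for HCC1806 and 34581754 to 44790741 for MDA-MB-468, so low genes were measured more precisely in MDA-MB-468. Fitted alone, HCC1806 had the larger spread between libraries, with a biological coefficient of variation of 0.204 against 0.0936 in MDA-MB-468. Since 1 shared spread understates that of HCC1806, calls in that line are given with the values of the line fitted alone. Epithelial markers were high in both lines (KRT8 at 425 and 1340 CPM in the control means of HCC1806 and MDA-MB-468). Of 6 such markers, 3 passed as lower on depletion in HCC1806: KRT5 by 0.92, EPCAM by 0.55 and CDH1 by 0.38 on the log2 scale (edgeR, adjusted p = 0.0106, 0.0335 and 0.0373). With HCC1806 fitted alone none of these 3 passed (edgeR, adjusted p = 0.138, 0.232 and 0.26). KRT19, KRT8 and KRT18 were at -0.60, -0.36 and -0.06 without passing, and in MDA-MB-468 none of the 6 passed. ERBB2 had 194 and 140 CPM, ESR1 20.9 and 6.67 CPM, and PGR 0.0573 and 0.0101 CPM in those means. Of 10 markers of leukocytes, endothelium and fibroblasts, CD3E was at 0 in the means of both HCC1806 groups and PTPRC, a marker of leukocytes, did not exceed a mean of 0.335 CPM in any group. Their summed level was 33.1 to 45.9 CPM in HCC1806 controls and 40.5 to 53.7 CPM after depletion, most of it COL1A1. In MDA-MB-468 it was 114 to 128 CPM in controls and 96.3 to 104 CPM after depletion, most of it CD14. The part of these marker genes in the results was not tested.

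After PACT depletion few of the members passed the test in the model of all 12 libraries. In HCC1806, 3 of 41 members (7.32%) passed the test: RSAD2 and IRF7 rose and LGALS3BP fell. Over all genes tested 2.49% passed, 1.16% upward and 1.32% downward. The median log2 fold change was 0.08 over the members and 0.01 over all genes. Of the 41 members 24 (58.5%) were above 0, against 50.9% of all genes. The CPM of control and depleted libraries did not overlap for 10 members (24.4%), 7 higher (17.1%) and 3 lower (7.32%). Of all genes 16.7% did not overlap, 8.51% higher and 8.17% lower. An unadjusted p under 0.05 was reached by 13 members (31.7%) and by 14.5% of all genes. Fitted to the HCC1806 libraries alone, none of the 41 passed and 0.315% of all genes did. With replicate number as a block, 5 passed (IRF1 and MX1 in addition), and 7.2% of all genes. The labels give only the number, and the pairing in this line was taken from these same data. DESeq2 called 4 (IRF1, IRF7, LGALS3BP and MX1), beside 7.52% of the 16548 genes with an adjusted p there. RSAD2 was not among those genes. In limma-voom with a variance weight per line LGALS3BP alone passed, beside 1.49% of all genes. With library size as the only scaling, which moves the median of all genes to 0.13, 31 of the 41 were above 0, and 4 passed upward (IRF7, MX1, RSAD2 and TRIM25) and none downward, against 2.93% of all genes.

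**Figure D2:**
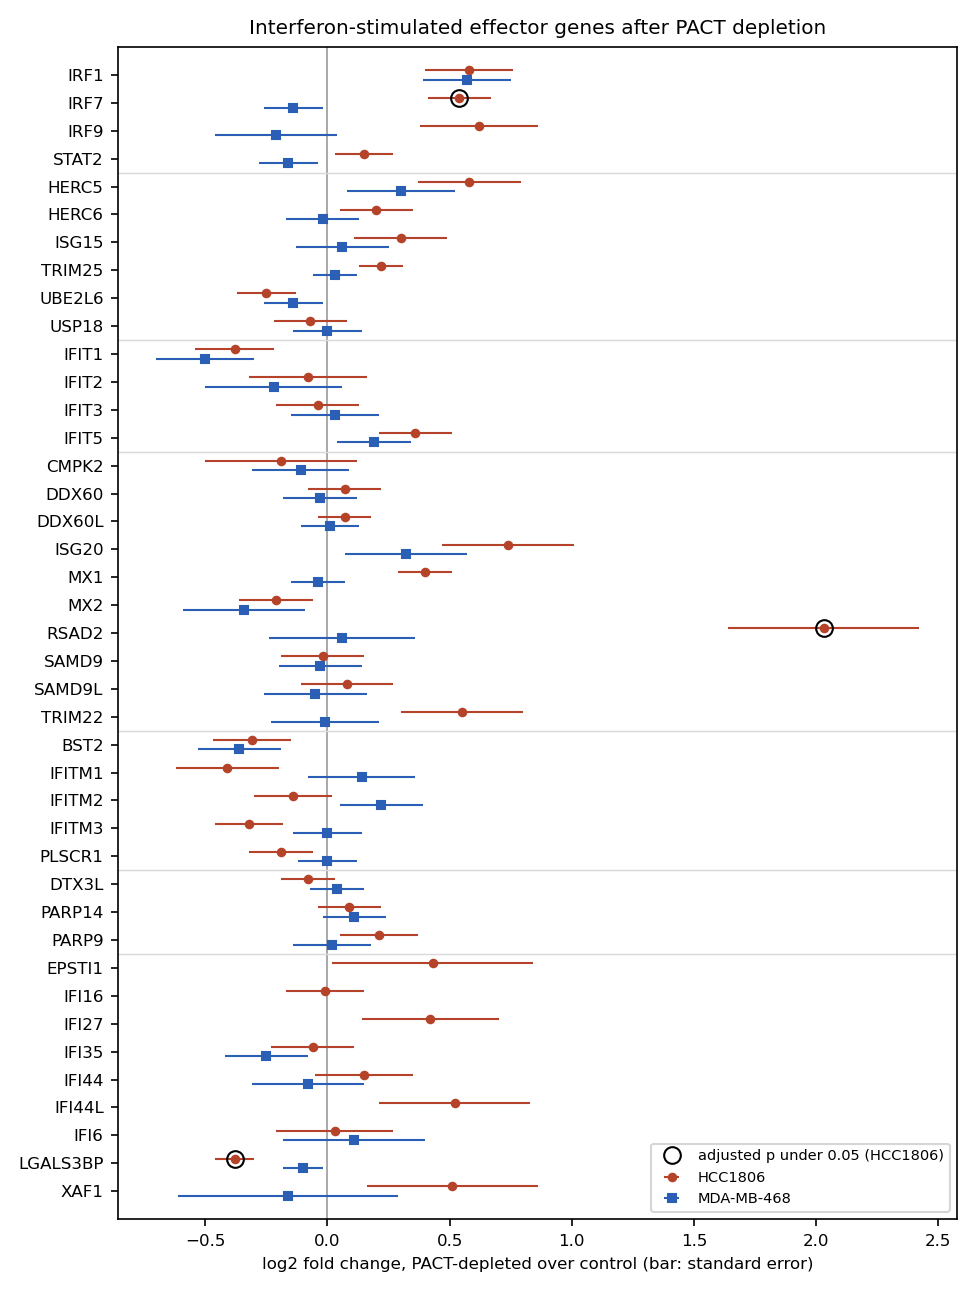
Log2 fold change on PACT depletion of each member, ordered by role, from the model of all 12 libraries; circles are HCC1806, squares MDA-MB-468, and bars the standard error. Black rings mark the 3 members with an adjusted p under 0.05 in HCC1806, RSAD2 standing far to the right at 2.03; the MDA-MB-468 values of IFI16, IFI27, IFI44L and EPSTI1 are left out because no library of that line had more than 9 counts.

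The 4 transcription factors all had log2 fold changes above 0 in HCC1806, with a median of 0.56, and 1 of them, IRF7, passed the test. IRF7 (ENSG00000185507, chromosome 11, 612553 to 615999, minus strand, GRCh38) is the factor that amplifies type I interferon transcription once it is phosphorylated. It had 11.1, 13.7 and 14.4 CPM in the HCC1806 controls and 18.1, 19.4 and 19.5 CPM after depletion. Every depleted library was above every control. IRF7 rose by 0.54 on the log2 scale (SE 0.13, adjusted p = 0.0301, edgeR). With the replicate block its adjusted p was 0.00611, and with HCC1806 fitted alone it was 0.196. Leaving out each library in turn, it passed 5 times in 12, and without control library 1 its log2 fold change was 0.43 (adjusted p = 0.121, edgeR). In MDA-MB-468 the same gene had 26.0, 24.3 and 24.1 CPM in controls and 24.9, 21.1 and 21.7 CPM after depletion, which overlap.

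IRF1 (ENSG00000125347, chromosome 5, 132481609 to 132490798, minus strand), a factor induced through the GAS and active on many of these promoters, had a like fold change in both lines. Its CPM in HCC1806 were 38.6, 42.7 and 59.8 in controls and 55.1, 58.8 and 97.1 after depletion. In MDA-MB-468 they were 43.4, 43.0 and 43.2 in controls and 63.4, 60.7 and 68.1 after depletion. The groups overlapped in HCC1806, where library 3 was the highest of each group, and stood apart in MDA-MB-468. The log2 fold changes were 0.58 (SE 0.18, adjusted p = 0.114, edgeR) in HCC1806 and 0.57 (SE 0.18, adjusted p = 0.551) in MDA-MB-468, so neither passed. Between libraries with the same number the ratio of depleted to control was 1.43, 1.38 and 1.63 in HCC1806. IRF1 passed with the replicate block in HCC1806 (adjusted p = 0.000861, edgeR), where the pairing was taken from these same data. It also passed in the fit of MDA-MB-468 alone (adjusted p = 8.46e-06, edgeR), which has the smaller spread of that line. Its exons overlap C5orf56 on the other strand, and 21.98% of its 50-base words occur in other genes, so reads of that neighbour cannot be set apart without the strand setting.

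IRF9, the DNA-binding part of ISGF3, had 5.75, 10.0 and 5.89 CPM in HCC1806 controls and 7.84, 11.8 and 13.5 CPM after depletion. Control library 2 lay within the depleted range, and the log2 fold change of 0.62 did not pass (SE 0.24, adjusted p = 0.209, edgeR). It shares 43.81% of its 50-base words with other genes, an overlapping gene on its own strand among them, and is uncertain for that reason. STAT2, another part of that complex, had log2 fold changes of 0.15 in HCC1806 and -0.16 in MDA-MB-468. All 4 factors were above 0 in HCC1806 under each scaling tried and without depleted library 3, where their median was 0.36.

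**Figure D3:**
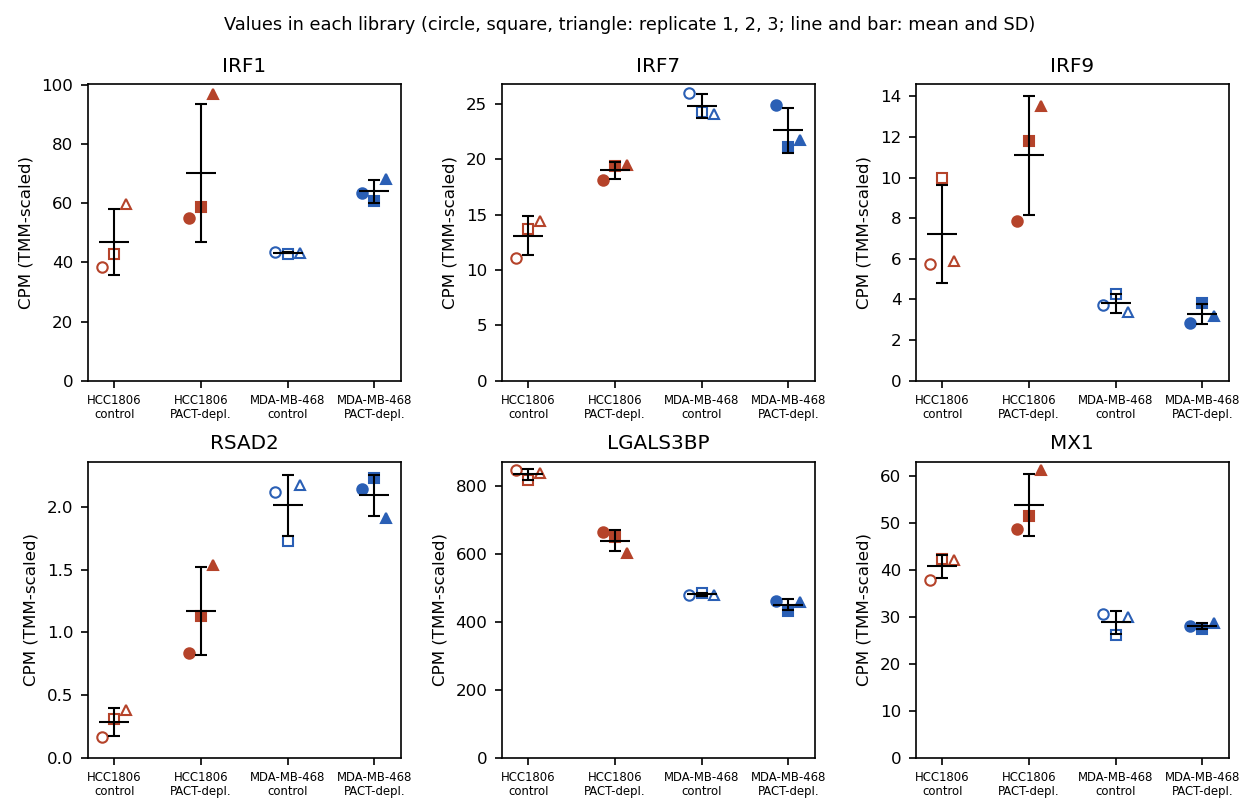
CPM of 6 members in each of the 12 libraries; circle, square and triangle are replicates 1, 2 and 3, open symbols controls and filled symbols PACT-depleted, with the mean and SD of each group as lines. IRF7, RSAD2 and MX1 have no overlap between the HCC1806 groups, LGALS3BP is lower in each depleted HCC1806 library, and IRF1 is higher in each depleted MDA-MB-468 library.

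Among the 10 enzymes and replication inhibitors, RSAD2 alone passed in HCC1806. RSAD2 (ENSG00000134321, chromosome 2, 6865806 to 6898239, plus strand) encodes viperin, which makes a chain-terminating nucleotide from CTP. HCC1806 controls had 4, 7 and 9 counts of it and depleted libraries 17, 26 and 46, or 0.167, 0.313 and 0.381 CPM against 0.833, 1.13 and 1.54 CPM. Each depleted library was above each control, at a level that remains low. RSAD2 rose by 2.03 on the log2 scale (SE 0.39, adjusted p = 0.0115, edgeR). With the replicate block its adjusted p was 0.00461, and with HCC1806 fitted alone 0.164. Without control library 1 the log2 fold change was 1.74 (adjusted p = 0.0573, edgeR), the only one of the 12 libraries whose omission left it short of the threshold. In MDA-MB-468 RSAD2 had 2.12, 1.73 and 2.17 CPM in controls and 2.14, 2.23 and 1.91 CPM after depletion, so the depleted HCC1806 libraries remained below every library of MDA-MB-468.

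CMPK2, a nucleotide kinase whose gene lies head to head with RSAD2 and overlaps its exons on the other strand, did not follow it. CMPK2 had 0.709, 0.671 and 0.678 CPM in HCC1806 controls and 0.539, 0.39 and 0.835 CPM after depletion, with a log2 fold change of -0.19 (edgeR, adjusted p = 0.888). MX1, a GTPase that traps viral nucleocapsids, had 37.9, 42.2 and 42.1 CPM in HCC1806 controls and 48.7, 51.5 and 61.2 CPM after depletion. These groups did not overlap, and the log2 fold change was 0.40 (SE 0.11, adjusted p = 0.0666, edgeR), or 0.0147 with the replicate block and 0.244 in the line alone. Its paralog MX2 had a log2 fold change of -0.21. ISG20, an exonuclease of RNA, had CPM of 2.46, 1.16 and 2.24 in controls and 3.63, 2.64 and 3.54 after depletion in HCC1806, and did not overlap in MDA-MB-468 either (3.98, 3.89 and 3.27 against 5.22, 4.57 and 4.12). Neither of its log2 fold changes, 0.74 and 0.32, passed the test. SAMD9, SAMD9L, DDX60, DDX60L and TRIM22 had log2 fold changes of -0.02 to 0.55 in HCC1806, none past the test.

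LGALS3BP (ENSG00000108679, chromosome 17, 78971238 to 78980109, minus strand), a secreted glycoprotein that binds galectins, had the highest level per length in HCC1806 controls. It was the only member that passed the test as lower there. Its CPM in HCC1806 were 848, 817 and 838 in controls and 664, 650 and 604 after depletion. No depleted library reached the control range. LGALS3BP fell by 0.38 on the log2 scale (SE 0.08, adjusted p = 0.0212, edgeR). It passed whichever of the 12 libraries was left out, with the replicate block (adjusted p = 0.00337) and with a variance weight per line in limma-voom (adjusted p = 0.00937). It did not pass with HCC1806 fitted alone (adjusted p = 0.232) or with library size as the only scaling, where the log2 fold change was -0.26 (adjusted p = 0.0576). In MDA-MB-468 the CPM were 479, 486 and 479 in controls and 460, 431 and 459 after depletion, also without overlap, with a log2 fold change of -0.10 that did not pass. The fall in HCC1806 stands beside that of the epithelial markers KRT5, EPCAM and CDH1 in the same libraries, whose part in it was not tested. These markers also did not pass with HCC1806 fitted alone.

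The membrane proteins IFITM1, IFITM2, IFITM3, BST2 and PLSCR1, which act at virus entry or release or at the cell membrane, all had log2 fold changes below 0 in HCC1806, with a median of -0.31, and none passed. All 5 were below 0 under each scaling tried, the smallest being IFITM2 at -0.02 with library size only. IFITM1 and IFITM2 overlap on 1 strand and share over 30% of their 50-base words with each other and IFITM3, so their counts are uncertain. BST2, or tetherin, which holds budding virus on the cell surface, had 18.2, 18.4 and 20.6 CPM in HCC1806 controls and 14.3, 17.8 and 14 CPM after depletion. In MDA-MB-468 it had 4.96, 5.05 and 5.84 CPM in controls and 4.45, 3.25 and 4.68 CPM after depletion. In both lines every depleted library was below every control, and the log2 fold changes of -0.31 and -0.36 did not pass (edgeR, adjusted p = 0.384 and 0.942).

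IFIT1, the best known of the IFIT proteins, binds viral RNA that lacks the cap marks of host transcripts. It had 18.7, 18.7 and 17 CPM in HCC1806 controls and 11.0, 14.4 and 16.3 CPM after depletion. In MDA-MB-468 it had 1.78, 1.73 and 2.27 CPM in controls and 1.45, 1.23 and 1.42 CPM after depletion. The depleted libraries lay below the controls in both lines, and the log2 fold changes were -0.38 (edgeR, adjusted p = 0.285) and -0.50 (adjusted p = 0.817). IFIT5 went the other way in HCC1806, at 9.51, 9.53 and 7.54 CPM in controls and 11.3, 10.7 and 12.1 CPM after depletion, a log2 fold change of 0.36 (edgeR, adjusted p = 0.271). IFIT2 and IFIT3 had log2 fold changes of -0.08 and -0.04 in HCC1806, and both were above 0 with library size as the only scaling.

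Of the 6 members of the ISG15 system none passed in either line. ISG15 itself had 7.34, 11.0 and 8.47 CPM in HCC1806 controls and 12.8, 9.23 and 11.0 CPM after depletion, a log2 fold change of 0.30 (SE 0.19). UBE2L6, its conjugating enzyme, was at -0.25, HERC5, the main ISG15 ligase, at 0.58, HERC6 at 0.20, and USP18, which removes ISG15 and damps the receptor, at -0.07. TRIM25, a ubiquitin ligase of RNA sensing, was at 0.22 without overlap between the groups (119, 116 and 132 CPM against 148, 143 and 137 CPM; edgeR, adjusted p = 0.282). The ADP-ribosyl transferases PARP9 and PARP14 and their partner DTX3L were at 0.21, 0.09 and -0.08. Of the remaining members IFI6, IFI16, IFI35 and IFI44 lay between -0.06 and 0.15 in HCC1806, and IFI27, IFI44L, EPSTI1 and XAF1 between 0.42 and 0.52 with standard errors of 0.28 to 0.41.

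In MDA-MB-468 none of the 41 members passed, in edgeR or in DESeq2. In edgeR 0.17% of all genes passed, all of them upward, and in DESeq2 0.426% of the 26504 genes with an adjusted p there. The fit of the line alone and the fit without the filter on low counts each called 1 member, IRF1, where 1.51% and 0.322% of all genes passed. The median log2 fold change was -0.02 over the members, -0.01 over the 37 members with at least 10 counts in some library of the line, and -0.01 over all genes. An unadjusted p under 0.05 was reached by 3 members, IRF1, IFIT1 and BST2, and by 5.27% of all genes. Control and depleted libraries did not overlap for 8 members, 3 higher (IRF1, ISG20 and IFITM2) and 5 lower (IFIT1, BST2, STAT2, LGALS3BP and UBE2L6), where 13.1% of all genes did not overlap, 6.2% higher and 6.94% lower. ISG20, IFIT1, BST2 and LGALS3BP, 4 of these 8 and 4 of the 10 in HCC1806, stood apart in the same direction in both lines, 4 of 41 members where 2.04% of all genes did so. IFI16, IFI27, IFI44L and EPSTI1 had at most 9 counts in any MDA-MB-468 library, so no fold change is given for them, and a fall or a small change would not be detectable at this depth.

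The difference between the effects in the 2 lines (MDA-MB-468 minus HCC1806) passed for none of the members, against 0.122% of all genes, and 5 members had an unadjusted p under 0.05 where 8.39% of all genes did. RSAD2 had a difference of -1.97 on the log2 scale (SE 0.50, adjusted p = 0.181, edgeR) and IRF7 one of -0.68 (SE 0.17, adjusted p = 0.197). With DESeq2 both passed (adjusted p = 0.0402 for RSAD2 and 0.0443 for IRF7), where 0.904% of the 19692 genes with an adjusted p did. With the replicate block IRF7 passed (adjusted p = 0.0439, edgeR), and 1% of all genes. The block also covered MDA-MB-468, whose libraries share only a number. For IRF1 the difference was -0.01 (SE 0.26, adjusted p = 1). LGALS3BP had a difference of 0.29 (SE 0.12, adjusted p = 0.506).

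Of 59 other genes of the interferon pathway, 40 had enough counts to be tested. In HCC1806 TYK2 alone passed, the kinase that starts the signal at IFNAR1, and in MDA-MB-468 none did (edgeR, where 2.49% and 0.17% of all genes passed). At an unadjusted p under 0.05 there were 11 of 40 in HCC1806, against 14.5% of all genes, and 1 of 40 in MDA-MB-468, against 5.27%. TYK2 had 83.1, 87.0 and 92.5 CPM in HCC1806 controls and 122, 109 and 113 CPM after depletion, and rose by 0.39 on the log2 scale (SE 0.09, adjusted p = 0.0336, edgeR). With HCC1806 fitted alone its adjusted p was 0.205, and without control library 1 it was 0.108 at a log2 fold change of 0.34. With the replicate block 4 pathway genes passed in HCC1806, TYK2 among them, and 7.2% of all genes. JAK1, which acts beside TYK2 at the receptor, was at 0.26 there. The 6 receptor chains had log2 fold changes of -0.36 to -0.03 in HCC1806, and in MDA-MB-468 of -0.13 to 0.25. IFNAR1 was at -0.22 and -0.13 and IFNAR2 at -0.04 and 0.05. Of the 21 interferon ligands, IFNE and IFNK alone passed the filter on low counts. IFNB1, a type I interferon that infected epithelial cells make, had 1, 0 and 1 counts in the HCC1806 controls and 1, 4 and 9 counts after depletion, and 0, 1 and 0 against 1, 1 and 0 counts in MDA-MB-468. These counts are too few for a test.

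Differences between the lines in the control libraries were far larger than those on depletion. Of the 41 members, 36 differed between the controls, 26 lower and 10 higher in MDA-MB-468, and 74.2% of all genes did, 40.1% lower and 34.2% higher. Among the 26 are IFI16, IFI27, IFI44L and EPSTI1, which passed the filter on low counts only through HCC1806. A call for these follows largely from how they were kept, so it adds no support. A difference of at least 1 on the log2 scale was reached by 23 members (56.1%) and by 56.4% of all genes. The median log2 difference was -0.79 over the members and -0.26 over all genes, or -1.04 and -0.51 with library size only. The control guides differed between the lines (sgC1 and sgNTA), so line and guide cannot be told apart. In a bulk sample fewer cells that express a gene and less of its RNA per cell cannot be told apart either.

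**Figure D4:**
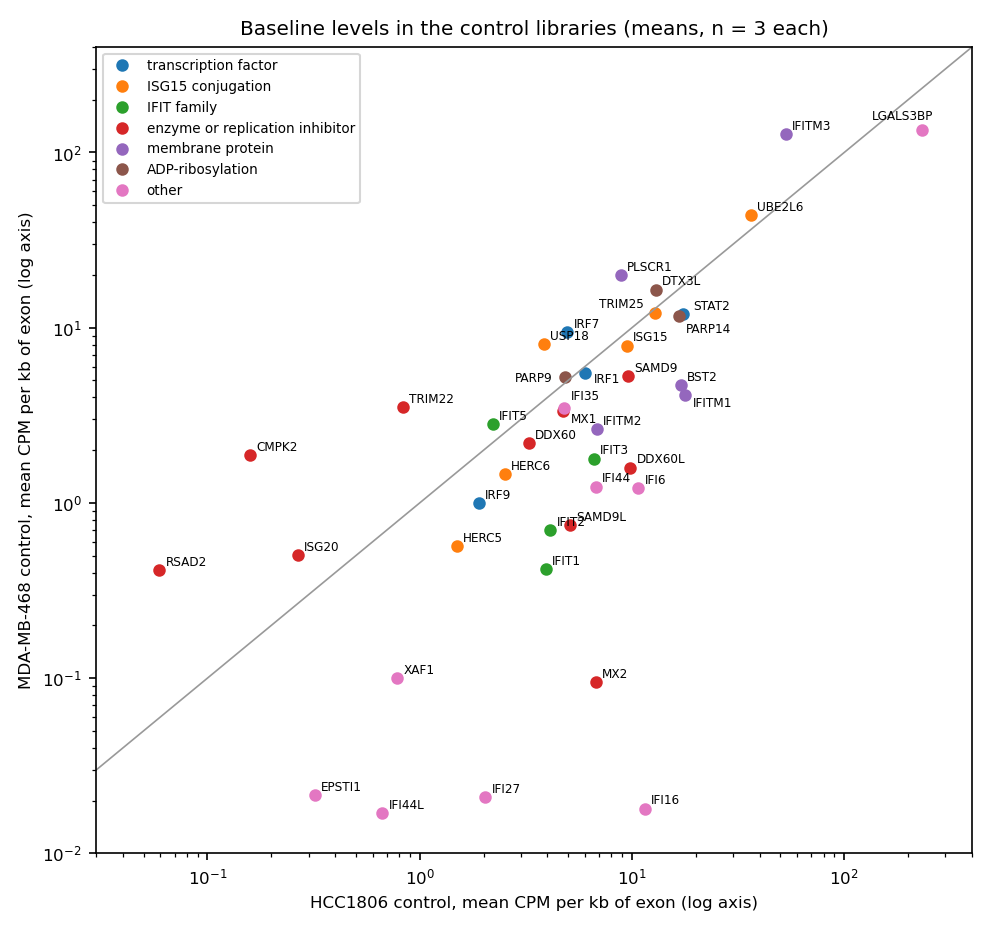
Mean level of each member in the control libraries in CPM per kilobase of exon, HCC1806 on the x axis and MDA-MB-468 on the y axis, both logarithmic, n = 3 libraries each, coloured by role; the line marks equal levels. Most points lie below the line; IFI16, IFI27, IFI44L, EPSTI1 and MX2 are far below it, and CMPK2, RSAD2 and TRIM22 are the farthest above it.

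The 9 members outside the other roles (IFI6, IFI16, IFI27, IFI35, IFI44, IFI44L, EPSTI1, LGALS3BP and XAF1) were all lower in MDA-MB-468 controls, with a median log2 difference of -3.12. Of these, XAF1 shares 34.67% of its 50-base words with other genes. IFI16, a nuclear sensor of DNA, had 64.1, 64.6 and 54.3 CPM in the HCC1806 controls and 0.111, 0 and 0.175 CPM in those of MDA-MB-468. That is 1537, 1444 and 1281 counts against 4, 0 and 7, a log2 difference of -9.18 (SE 0.28). IFI27, a small mitochondrial protein often used to read interferon exposure, had 210, 223 and 157 counts against 5, 4 and 0, a difference of -6.60 (SE 0.46). IFI44L, a close relative of IFI44, had 181, 112 and 187 counts against 3, 7 and 9, a difference of -5.26 (SE 0.44). MX2, which blocks nuclear import of HIV, had 90.2, 100 and 73.5 CPM against 1.20, 1.31 and 1.22 CPM, a difference of -6.14 (SE 0.21). No library of 1 line reached the range of the other for these 4 genes. The sizes for IFI16, IFI27 and IFI44L rest on at most 9 counts per MDA-MB-468 library. That of IFI16 ranged from -9.93 to -8.67 when single libraries were left out. IFI27 is one of the members printed above with 2 ISRE matches.

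Of the IFIT genes 3 were lower in MDA-MB-468 controls, IFIT1 by -3.23, IFIT2 by -2.55 and IFIT3 by -1.88 on the log2 scale, and IFIT5 was higher by 0.36 (edgeR, adjusted p = 0.0401). Among the membrane proteins IFITM1, IFITM2 and BST2 were lower, at -2.10, -1.36 and -1.85, while IFITM3 and PLSCR1 were higher. IFITM3, which blocks fusion of virus in endosomes, had 55.7, 82.1 and 77.0 CPM in HCC1806 controls and 195, 158 and 167 CPM in MDA-MB-468, a difference of 1.27 (SE 0.14). It shares 35.17% of its 50-base words with other genes. PLSCR1, a phospholipid scramblase, differed by 1.17.

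Genes with the largest differences in the other direction were enzymes or replication inhibitors. CMPK2 had 0.709, 0.671 and 0.678 CPM in the HCC1806 controls and 8.5, 7.61 and 8.19 CPM in those of MDA-MB-468, a log2 difference of 3.55 (SE 0.25, adjusted p = 7.42e-10, edgeR). Its neighbour RSAD2 differed by 2.79 (SE 0.38) in the same direction, between the control values given above. TRIM22, a ubiquitin ligase that limits viral transcription, had 3.67, 5.82 and 5.55 CPM against 21.5, 20.6 and 21.9 CPM, a difference of 2.09 (SE 0.25). The exons of TRIM22 overlap OR56B1 on the same strand. DDX60L, SAMD9L and DDX60, all tied to RNA or translation control in infection, were lower in MDA-MB-468 at -2.63, -2.78 and -0.57.

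The transcription factors, the ADP-ribosylation genes and the ISG15 system had median differences of -0.33, 0.10 and -0.17. IRF1 did not pass between the controls (difference -0.12, SE 0.18, adjusted p = 0.55, edgeR), IRF7 was higher in MDA-MB-468 by 0.93, and IRF9 and STAT2 were lower by -0.93 and -0.54. PARP9, PARP14 and DTX3L differed by 0.10, -0.52 and 0.35. In the ISG15 system USP18 was higher by 1.06 and HERC5 and HERC6 lower by -1.40 and -0.79. USP18 shares 23.41% of its 50-base words with other genes, so its count is uncertain. ISG15 (-0.26, SE 0.19, adjusted p = 0.216), TRIM25 (-0.09) and UBE2L6 (0.27, adjusted p = 0.0504) did not pass. Upstream, IFNAR1 had 58.7 ± 9.43 CPM in HCC1806 controls and 135 ± 9.39 CPM in MDA-MB-468 (SD, n = 3), and IFNAR2, JAK1 and TYK2 were also higher in MDA-MB-468, by 1.43, 1.68 and 2.24 on the log2 scale.

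Per kilobase of exon the highest 3 members, LGALS3BP, IFITM3 and UBE2L6, were the same in both lines, and the next ones differed. In HCC1806 controls LGALS3BP led with 233 ± 4.47 CPM per kilobase, followed by IFITM3 with 53.1 ± 10.4, UBE2L6 with 36.4 ± 4.32, IFITM1 with 17.7 ± 3.54 and STAT2 with 17.4 ± 2.21 (SD, n = 3). IFITM1 and STAT2 do not differ beyond their spread. In MDA-MB-468 controls LGALS3BP with 134 ± 1.16 and IFITM3 with 128 ± 14.2 CPM per kilobase overlapped, and UBE2L6 with 44.0 ± 0.249, PLSCR1 with 20 ± 1.01 and DTX3L with 16.5 ± 0.355 followed (SD, n = 3). STAT2 had 94.4, 121 and 104 CPM in HCC1806 controls and 70.2, 71.8 and 77.1 CPM in MDA-MB-468. UBE2L6 had 70.1, 89.0 and 80.8 CPM against 96.1, 97.2 and 96.7 CPM, IFITM1 16.9, 23.5 and 16.9 CPM against 4.85, 4.90 and 3.67 CPM. PLSCR1 had 38.3, 41.6 and 35.7 CPM against 87.0, 82.6 and 91.3 CPM, and DTX3L 79.3, 81.1 and 68.0 CPM against 95.8, 95.8 and 99.4 CPM. Of these 5 genes, all but STAT2 and IFITM1 were higher in each MDA-MB-468 control than in each HCC1806 control.

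Depleted HCC1806 library 3 stood above the rest of its group. It was the highest of the 6 HCC1806 libraries for 24 of the 41 members, with a median deviation of 0.33 from the control mean on the log2 scale, where the median of all genes deviated by 0.03. Depleted library 1 had a median member deviation of -0.14, and library 2 of 0.05. Without library 3 the members had a median log2 fold change of -0.02 and 19 of 41 were above 0, and RSAD2 and LGALS3BP passed, where 1.71% of all genes did. Without depleted library 1 the median was 0.18 and 7 members passed (IRF1, IRF7, IRF9, LGALS3BP, MX1, RSAD2 and TRIM22), while the share of all genes that passed was 6.15% in place of 2.49%. Without control library 1 LGALS3BP alone passed, and 1.03% of all genes. Library 3 had the deepest sequencing of its line, with 24704877 counts, and 12.7% of counts on mitochondrial genes within the line's range of 11.6% to 15.0%. In MDA-MB-468 the median deviations of the members lay between -0.12 and 0.07.

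**Figure D5:**
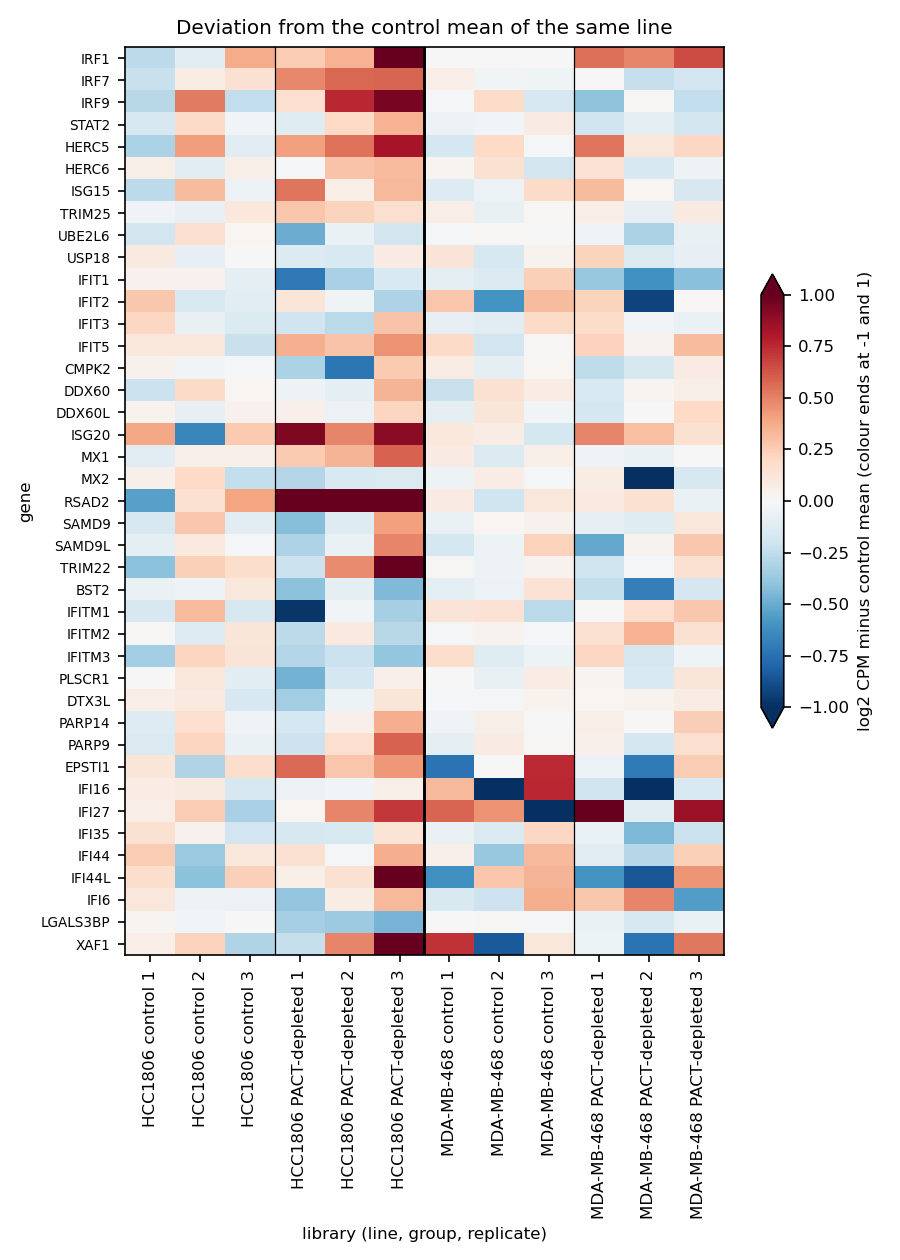
Deviation of each member in each library from the mean of the control libraries of the same line, in log2 CPM, with red above and blue below; thin lines separate groups and a thick line the cell lines. RSAD2 is dark red in the 3 depleted HCC1806 libraries and IRF1 red in the 3 depleted MDA-MB-468 libraries; the strong colours of EPSTI1, IFI16, IFI27 and IFI44L in MDA-MB-468 rest on at most 9 counts per library.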

How the data were processed

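The authors deposited a table of unnormalized read counts, with Ensembl genes in rows and a column for each library. The submitters' processing notes name Trimmomatic 0.36, STAR 2.5.2b, featureCounts, Subread 1.5.2 and GRCh38. The roles of these tools, the strand setting and the annotation are not given in the sources used here. Gene models were taken from GENCODE 29 by Ensembl ID, which matched 56898 of 57500 genes. Genes with no name held 0.0284% of counts.

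Genes passing filterByExpr on the 4 groups (27029 of 44375 with a count) were scaled by TMM. They were tested in 1 quasi-likelihood model of all 12 libraries in edgeR 4.0.16 (R 4.3.3), two-sided, with Benjamini-Hochberg adjustment over all genes tested. A gene was called at an adjusted p under 0.05. CPM are TMM-scaled. Alternatives were DESeq2 1.42.0, RLE factors, library size only, no filter, only the libraries of a comparison, the replicate block and leaving out each library. limma-voom (limma 3.58.1) with a variance weight per line was added after seeing the data. The tests were tried on simulated data first. Figures were made with matplotlib 3.10.9 in Python 3.11.15.

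The members and gene lists were chosen with earlier results of these data known. Values in every library are given for members called on depletion, those with the smallest p, the 4 largest control differences in each direction and the 5 highest levels per kilobase in each line; further members without overlap between groups were chosen after their values were seen. One gene of the pathway list is not reported here.

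Replicate numbers come from the library titles. Deviations of libraries with the same number correlated at 0.479, 0.294 and 0.152 across 15918 genes in HCC1806, each over 0.1, so these were taken as pairs, although control 2 and depleted 3 correlated at 0.351. In MDA-MB-468 the values were 0.116, 0.075 and 0.106, and the libraries share only a number. The replicate block nevertheless covered both lines.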

Additional observations from a re-analysis of the deposited data

Results flagged for a closer look

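The change of PRKRA, the targeted gene, differed between the 2 lines by a test of the difference itself. The log2 fold change in MDA-MB-468 minus that in HCC1806 was 0.87 (SE 0.14, adjusted p = 0.0198, edgeR). All 3 depleted HCC1806 libraries had 36.1 to 37.5 CPM against 72.1 to 82.6 CPM in the controls, whereas in MDA-MB-468 the ranges of 35.5 to 41.6 and 41.1 to 46.9 CPM overlapped. Leaving out each library in turn, the difference passed 5 times in 12, and its adjusted p reached 0.0931 in the others, without MDA-MB-468 control library 1.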

How the results depend on the processing

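Counts of members called on depletion in HCC1806 ranged from 0 to 7. None passed in the fit of HCC1806 alone and 1 in limma-voom (LGALS3BP), where 0.315% and 1.49% of all genes passed. Leaving out single libraries gave 1 to 7, where 1.03% to 6.15% of all genes passed. With the replicate block, 5 members passed in HCC1806, 1 in MDA-MB-468 (IRF1) and 1 in the difference of effects (IRF7). Of all genes, 7.2%, 0.377% and 1% passed in these comparisons. The block changed no other count of members or median by over 1.5 times. IRF1 also passed in MDA-MB-468 without the filter on low counts (1 member, 0.322% of all genes) and in that line alone (1 member, 1.51%). Leaving out single libraries gave 0 members there, where 0.0696% to 0.336% of all genes passed. For the difference of effects DESeq2 called 2 members, IRF7 and RSAD2, beside 0.904% of the genes with an adjusted p. Leaving out single libraries gave 0, beside 0.0329% to 0.576% of all genes. Pathway genes called in HCC1806 numbered 2 with library size only and 2 without the filter, where 2.93% and 3.04% of all genes passed. With the replicate block there were 4, beside 7.2% of all genes, and 0 in the line alone and 0 in limma-voom. Leaving out single libraries gave 0 to 2. The count was 0 without control 1 or depleted 2 of HCC1806, and without control 1, 2 or 3 or depleted 3 of MDA-MB-468.

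Medians of the members ranged from -0.02 to 0.18 in HCC1806 and from -0.07 to 0.02 in MDA-MB-468 when single libraries were left out. The baseline median moved to -1.04 with library size only and lay between -0.79 and -0.59 without single libraries. Without single libraries 34 to 37 members were called at baseline, and 67.1% to 73.8% of all genes. Values near 0 changed sign: EIF2AK2 in MDA-MB-468 (0 in DESeq2 and with RLE factors, 0.05 with library size only, 0.01 in the line alone, -0.07 to 0.05 without single libraries) and the difference of effects of IRF1 (0 in DESeq2, 0.01 with the block, -0.21 to 0.31 without single libraries). The cause of these changes was not tested. In all, 145 of 170 counts and medians under alternatives stayed within the range of the reported value, by a rule that did not look at the sign. Medians near 0 did change sign, such as that of HCC1806, at 0.08 and at -0.02 without depleted library 3. Of 564 values of single genes, 494 kept their sign and their side of the threshold, and 19 reversed in sign. Few counts limit RSAD2 and CMPK2 in HCC1806. Their control means were 0.287 and 0.686 CPM there, against 2.01 and 8.1 CPM in MDA-MB-468. HCC1806 libraries also hold fewer counts than those of MDA-MB-468.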
